A study of Mus musculus with 15 samples.

Results

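The 7 genes described here, H19, Nctc1, Igf2, Cdkn1c, Meg3, Rian and Peg3, lie in imprinted domains of the mouse genome, 3 of them at the H19 locus. They were chosen by name and are 7 of the 8059 genes in a table of bulk RNA-seq counts from mouse skeletal muscle stem cells. These satellite cells lie along the fibres and rebuild them after injury. Igf2, Cdkn1c and Peg3 are named in the table. The other 4 carry no name there and were found by their Ensembl identifiers in GENCODE vM21. The study followed these cells through dissociation of muscle with collagenase and dispase, enzymes that digest the matrix around cells. The later groups were T15, T30, T60, T90 and T120, labelled as dissociated, and they were set against T0, labelled as intact. The time numbers have no unit in the labels and were taken as minutes. All groups were fixed with PFA (paraformaldehyde), and the labels give no genotype, strain, age or sorting gate for them. There were 4 libraries each at T15, T60, T120 and T0 and 3 each at T30 and T90, named below by time point and by the letter A to D of the table. Nothing says that the libraries of a time point came from separate animals, so p-values measure the spread between these libraries, which may be technical.

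Imprinted genes are expressed mainly from the allele of 1 parent, and their alleles differ in DNA methylation at control regions set in the germ line. At the H19 locus a control region bound by CTCF lets the maternal allele express H19 and the paternal allele express Igf2, and both use the same downstream enhancers. Several imprinted genes are known to be expressed in quiescent satellite cells, and loss of the paternally expressed Peg3 or of maternally expressed H19 changes muscle regeneration in mice. The counts here do not separate the alleles, so no parent of origin is measured.

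Counts over the listed genes totalled 2974294 to 10482407 per library at T0, T15 and T30 and 8647622 to 27826437 at T60, T90 and T120. These are not sequencing depths, because genes outside the table are not in them. Levels are given as CPM, counts scaled to library size (TMM), with the SD between libraries after ±. Changes are log2 fold changes ± SE from edgeR's quasi-likelihood test over all listed genes, and a gene was called at an adjusted p (Benjamini-Hochberg) under 0.05. A background density, the median CPM per kb of exon over 8 long genes that muscle stem cells should lack, averaged 2.23 at T0, 1.57 at T15 and 3.99 at T30, and 0.169 at T60, 0.330 at T90 and 0.645 at T120. Libraries T30A, T30B, T15D, T0C and T0A had the highest densities (2.83 to 6.24). Of 22 such genes chosen, only these 8 were in the table. Some may have entered it through their counts in the libraries of high background. The density, its difference between early and late times and every background subtraction below rest on these 8 genes, and this choice was not tested. All 13 satellite cell markers were listed, Pax7 and Myf5 among them. Their summed level was 6473 to 7394 CPM at T120 and 6045 to 7214 CPM at T0, with 3 called up and 8 down at T120. It was 8207 to 9057 CPM at T60 (4 called up and 0 down) and 8335 to 8685 CPM at T90, above T0 with no overlap. The 5 listed endothelial markers summed to 310.5 to 538 CPM at T120 and 133 to 209 CPM at T0, and 5 of 5 were called up. At T60 their sum was 121 to 177 CPM. The 5 listed fibro-adipogenic markers summed to 1874 to 2233 CPM at T120 and 1725 to 2911 CPM at T0, with 2 called up and 0 down. Of 7 immune markers 1 was listed, with 11.2 to 25.2 CPM at T120 and 9.44 to 11.9 CPM at T0, and it was called up. The 1 listed tenocyte marker had 52.8 to 181 CPM at T120 and 11.7 to 44.4 CPM at T0 and was called up. The 1 listed Schwann cell marker was not called.

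Against T0, 0 of the 7 members were called at T15 and 0 at T30, where 0.670% and 5.0% of all listed genes were called. At an unadjusted p under 0.05 the edgeR test also gave 0 members at both times, and DESeq2 called 0. At T60 1 member was called (56.2% of all listed genes), at T90 2 (68.8%) and at T120 3 (76.8%). All of these calls were falls, beside 28.3%, 35.0% and 39.5% of all listed genes that fell at these times. The share of members called at T120 was thus below that of all listed genes, and the libraries of 2 members did not overlap between T120 and T0, against 71.4% of all listed genes with no overlap. In the joint test over all times, 4 of the 7 were called (H19, Nctc1, Rian and Peg3; 85.7% of all listed genes). The 5 comparisons share the T0 libraries. Between neighbouring time points, 0 members were called at T30 against T15 (4.89% of all listed genes; 0 also at an unadjusted p under 0.05 and with DESeq2), 2 at T60 against T30 (51.0%), 1 at T90 against T60 (30.3%) and 2 at T120 against T90 (23.0%). The members' median log2 fold change was 0.24 at T60, 0.19 at T90 and -0.26 at T120, beside -0.03, -0.05 and -0.08 over all listed genes.

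**Figure D1:**
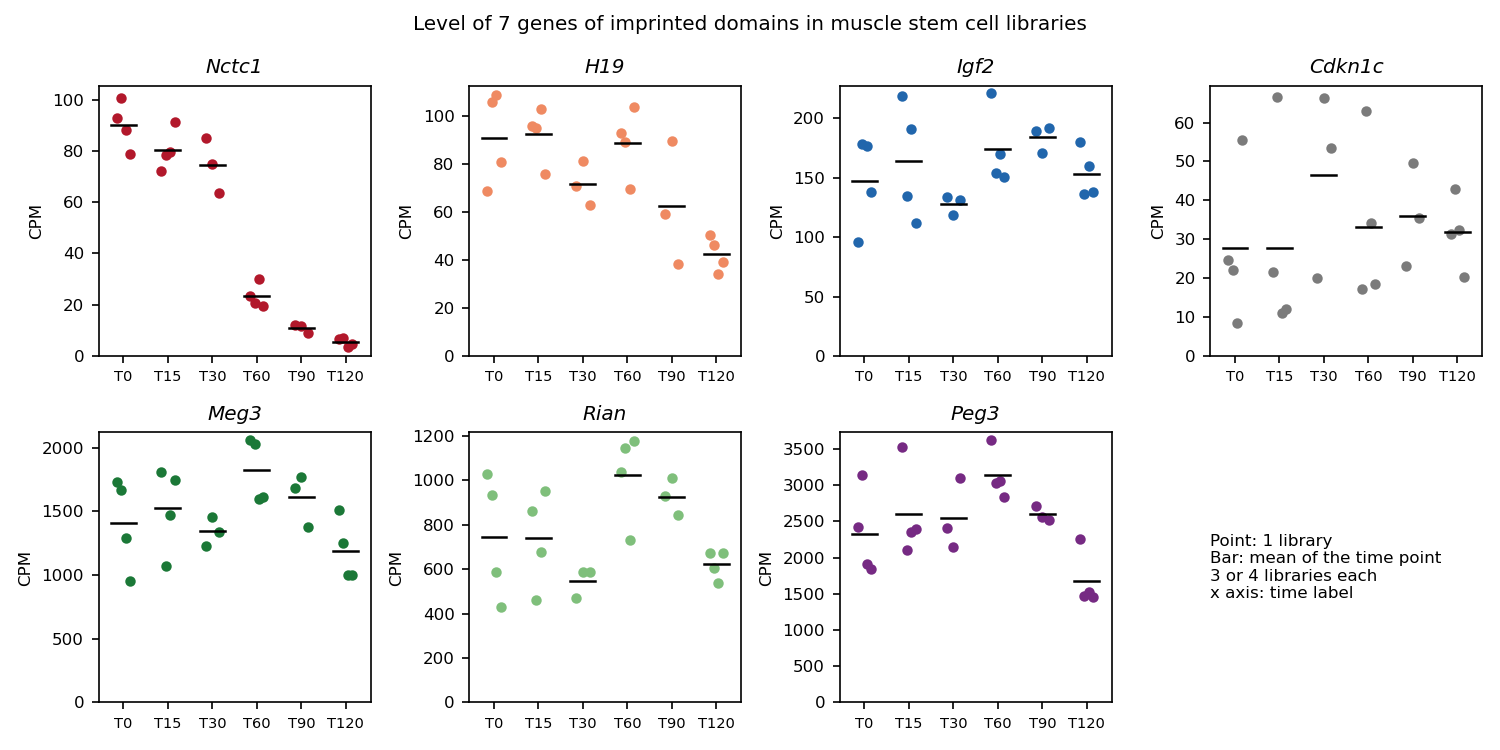
CPM (y axis, linear and from 0) of each gene in each library by time label (x axis); a point is 1 library and a bar the mean of 3 or 4 libraries. Nctc1 is near 5 CPM at T120 and near 90 at T0 with no overlap from T60 on. H19 is at 34.3 to 50.4 CPM at T120 and 68.9 to 109 at T0, and the Igf2 points of each later time overlap those of T0.

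Nctc1, a noncoding RNA transcribed across the muscle enhancer region downstream of H19, fell in steps from T60 on and was lowest at T120. Its gene lies on the minus strand at chr7:142544609-142558596 (mm10), with 3438 bases of exon and no exon shared with another annotated gene. Its level was 92.8, 100.5, 88.0 and 78.9 CPM in the T0 libraries A to D. At T15 it was 72.2, 78.3, 79.7 and 91.4 CPM, and at T30 it was 85.0, 74.8 and 63.4 CPM in libraries A to C. These 3 groups overlapped and neither later group was called. At T60 the level was 23.4, 20.7, 29.9 and 19.4 CPM, at T90 it was 11.9, 11.5 and 9.02 CPM, and at T120 it was 6.62, 6.99, 3.45 and 4.68 CPM. From T30 on, each time point lay below the one before it with no overlap.

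The mean of Nctc1 was 5.43 ± 1.67 CPM at T120 and 90 ± 9.02 CPM at T0 (SD, n = 4 each), 17.0-fold lower at T120. The log2 fold change against T0 was -1.95 ± 0.18 at T60 (edgeR adjusted p = 1.08e-08), -3.06 ± 0.21 at T90 (edgeR adjusted p = 7.79e-11) and -4.09 ± 0.20 at T120 (edgeR adjusted p = 7.99e-13). Steps that do not use T0 were called as well. They were -1.67 ± 0.18 at T60 against T30 (adjusted p = 6.08e-07), -1.11 ± 0.19 at T90 against T60 (adjusted p = 0.000314) and -1.03 ± 0.20 at T120 against T90 (adjusted p = 0.00170). The T120 change was the third lowest of all 8059 listed genes, after Bmyc (-4.21) and Tsc22d3 (-4.19). Leaving out any 1 of the 22 libraries kept it between -4.23 and -3.90, called each time. The T120 libraries held only 57 to 79 counts of Nctc1, and the background density times its exon length equals 19.2% to 65.2% of its level there, and 3.94% to 12.6% at T0. After background subtraction the T120 change was -4.99, or 31.7-fold lower. In bulk RNA, fewer cells of a type and less RNA per cell cannot be told apart, and the part of the endothelial markers in the T120 result was not tested. Markers of other cells moved over the same times. The 7 listed myofibre markers summed to 245 to 329.7 CPM at T60 and 479 to 703 CPM at T0 with no overlap, and 5 of them were called down. At T120 they summed to 215 to 472 CPM, with 2 called up and 4 down. The 6 listed smooth muscle and pericyte markers summed to 499 to 695 CPM at T120 and 225 to 357 CPM at T0, with 2 called up. Their part in the Nctc1 result was not tested either.

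The 300 bases around the annotated start of Nctc1 (250 before it and 50 after it) are shown because it changed most. The sequence is from RefSeq (GRCm38.p6), minus strand, chr7:142558549-142558848, and capitals mark a match to the CTCF core letters CCCTC, here on the opposite strand.
Nctc1 promoter: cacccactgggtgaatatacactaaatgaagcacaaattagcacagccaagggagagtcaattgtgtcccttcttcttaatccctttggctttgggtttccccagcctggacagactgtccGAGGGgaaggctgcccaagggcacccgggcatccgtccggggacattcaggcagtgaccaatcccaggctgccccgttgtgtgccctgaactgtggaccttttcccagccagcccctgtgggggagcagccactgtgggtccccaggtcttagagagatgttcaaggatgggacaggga
The motifs searched, on both strands, were the E-box CAGCTG, AP-1 TGANTCA, CRE TGACGTCA, the CArG box and CCCTC. Of 32851 mouse promoters of this length 16.3% hold the E-box letters, 7.81% AP-1, 1.79% CRE, 1.63% the CArG box and 66.0% CCCTC. No motif match overlapped another kind. In Nctc1 the search found 1 CCCTC and 0 of the others.

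H19, a spliced noncoding RNA that is abundant in embryonic muscle and is the precursor of miR-675, fell later and less than Nctc1. Its gene is on the minus strand at chr7:142575529-142578143, a lincRNA of 2460 exon bases, 16.9 kb from Nctc1 and 72.6 kb from Igf2. Its exon holds the miRNA gene Mir675, and the counts do not tell the precursor from the spliced RNA. The mature miR-675 arms (RefSeq, GRCm38.p6) are shown with their seeds, bases 2 to 8, in capitals. The 5p arm is at chr7:142577112-142577133 and the 3p arm at chr7:142577078-142577099.
mmu-miR-675-5p: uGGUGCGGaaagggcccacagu
mmu-miR-675-3p: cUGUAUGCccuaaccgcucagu
The 2 seeds differ. Mature miRNAs were not measured here.

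The H19 level was 68.9, 106, 109 and 81.0 CPM in the T0 libraries A to D, 95.9, 95, 103 and 76.1 CPM at T15, and 71.1, 81.6 and 63.2 CPM at T30. At T60 it was 92.9, 89.3, 69.8 and 104 CPM, at T90 it was 59.3, 89.6 and 38.5 CPM, and at T120 it was 50.4, 46.2, 34.3 and 39.4 CPM. The groups up to T60 overlapped, the T90 libraries were spread widely, and each T120 library was below each T0 library. H19 averaged 42.6 ± 7.14 CPM at T120 and 91.2 ± 19.5 CPM at T0 (SD, n = 4 each), 2.14-fold lower, with a log2 fold change of -1.10 ± 0.21 (edgeR adjusted p = 6.08e-05). It stayed between -1.22 and -1.0 and called when each library was left out in turn. The change was -0.03 ± 0.20 at T60 (adjusted p = 0.908) and -0.54 ± 0.22 at T90 (adjusted p = 0.0338). The T90 call was lost without T0B, T0C, T90A or T90C (adjusted p of 0.0817, 0.0838, 0.0845 and 0.201, at changes of -0.47, -0.46, -0.51 and -0.31). It was lost without the 5 libraries of highest background as well (0.0751), at an equal change of -0.54.

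The neighbouring steps of H19 were not called, at -0.51 ± 0.22 for T90 against T60 (adjusted p = 0.0807) and -0.56 ± 0.22 for T120 against T90 (adjusted p = 0.0687). The authors' deposited values for these steps were -0.55 (adjusted p = 0.0479) and -0.51 (adjusted p = 0.0911). With the library letter as a block the T90 step was -0.58 and was called (adjusted p = 0.0454). Both steps depended on single T90 libraries. Without T90B the first step was -0.88 (adjusted p = 0.00423), and without T90C the second was -0.80 (adjusted p = 0.0151). The background equals 1.63% to 7.05% of the H19 level at T120 and 2.68% to 10.1% at T0.

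Igf2, the paternally expressed growth factor of the same locus, was not called at any time against T0. Its gene lies on the minus strand at chr7:142650766-142666816. Of its 5723 exon bases 62.8% are shared with Gm49394, a same-strand gene model that is not in the table, so its counts may depend on how shared reads were assigned. The level was 96.0, 178, 177 and 138 CPM in the T0 libraries A to D, 219, 135, 191 and 112 CPM at T15, and 134, 119 and 131 CPM at T30. At T60 it was 221, 154, 169.6 and 151 CPM, at T90 it was 189, 171 and 192 CPM, and at T120 it was 179.8, 136, 159.7 and 138 CPM. Every group overlapped T0, and the T60 libraries all lay above those of T30. Igf2 averaged 153 ± 20.8 CPM at T120 and 147 ± 38.9 CPM at T0 (SD, n = 4 each), a change of 0.06 ± 0.19 (edgeR adjusted p = 0.787), and its joint test had an adjusted p of 0.261. The T60 against T30 step was 0.44 ± 0.21 (adjusted p = 0.0878), and with the library letter as a block it was 0.51 and called (adjusted p = 0.0387). After background subtraction this step was -0.06.

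**Figure D2:**
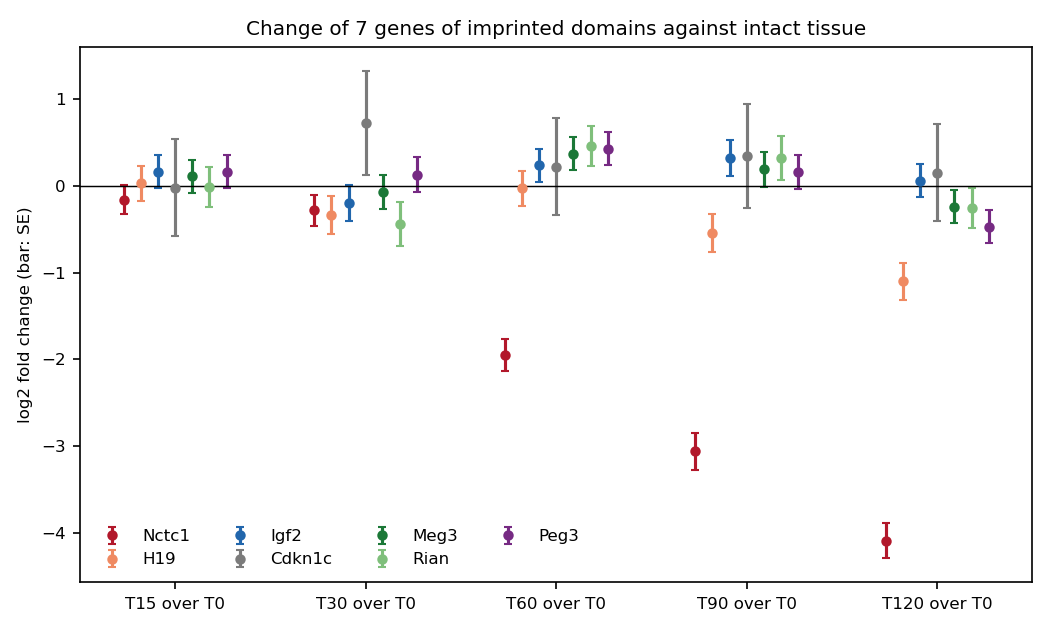
log2 fold change (y axis, bar: SE) of each gene at each later time over T0 (x axis). Nctc1 is at -1.95, -3.06 and -4.09 from T60 to T120 and H19 at -1.10 at T120, while the other members stay between -0.47 and 0.72.

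Ratios within a library need no scaling between libraries, so the 3 RNAs of the locus were also compared this way. The log2 ratio of H19 to Igf2 counts was -1.83, -1.56, -2.22 and -1.80 in the T120 libraries A to D, and -0.48, -0.75, -0.69 and -0.77 in the T0 libraries A to D. It averaged -1.85 ± 0.27 at T120 and -0.67 ± 0.13 at T0 (SD, n = 4 each), a difference of -1.18 with no overlap. The exact two-sided permutation p was 0.0286, the smallest that 4 against 4 libraries can give (0.0429 after Benjamini-Hochberg adjustment over the 3 ratios tested). At the times between, the mean ratio was -0.78 at T15, -0.84 at T30, -0.96 at T60 and -1.64 at T90, where library T90B at -0.93 lay apart from T90A at -1.67 and T90C at -2.32.

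The ratio of H19 to Nctc1 moved the other way. It was 2.92, 2.71, 3.30 and 3.07 in the T120 libraries and -0.43, 0.07, 0.31 and 0.04 in the T0 libraries A to D. It averaged 3.0 ± 0.25 at T120 and 0.00 ± 0.31 at T0 (SD, n = 4 each), with an exact permutation p of 0.0286 (adjusted 0.0429). The mean was 0.20 at T15, -0.05 at T30, 1.93 at T60 and 2.45 at T90. The counts of these neighbours were thus nearly equal through T30, and H19 counts were the higher in each library from T60 on.

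**Figure D3:**
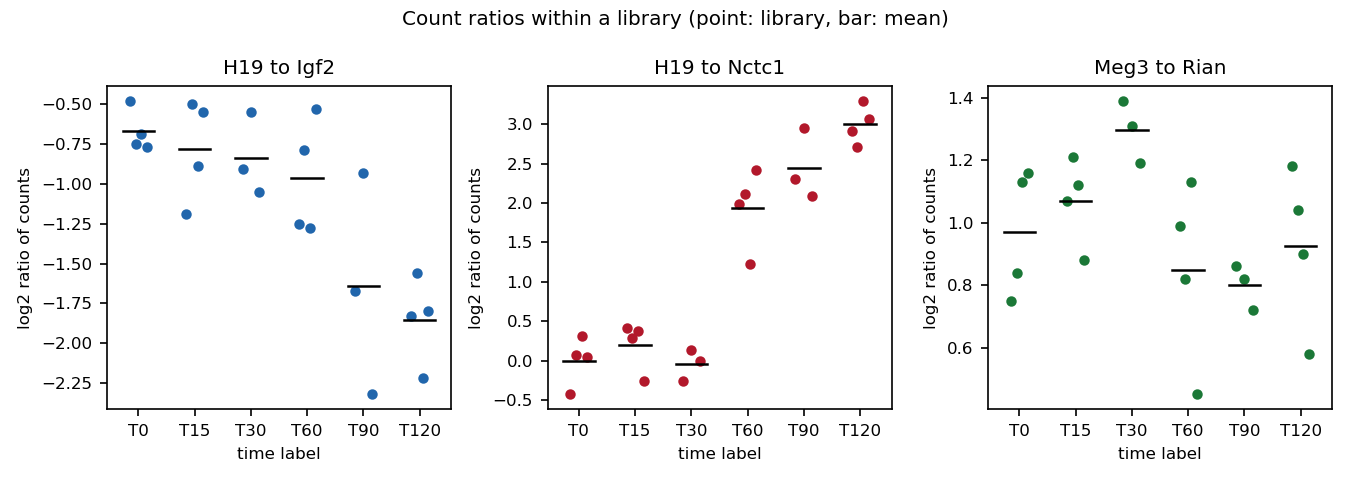
log2 ratio of counts in each library (y axis) by time label (x axis) for H19 to Igf2, H19 to Nctc1 and Meg3 to Rian; a point is 1 library and a bar the mean. H19 to Igf2 is lower at T120 than at T0 (-1.85 and -0.67), H19 to Nctc1 is higher from T60 on, and Meg3 to Rian overlaps between T120 and T0.

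Cdkn1c, the CDK inhibitor p57 of the neighbouring Kcnq1 domain, is expressed from the maternal allele and holds back cell division. Its gene is at chr7:143458339-143461050 on the minus strand, 791.5 kb from Igf2, and 30.7% of its exon bases lie opposite the antisense gene Gm44732, so without stated strand-aware counting the pair cannot be told apart. Its level varied widely between libraries, with a coefficient of variation of 29.1% at T120 to 94.4% at T15. That was the highest of the 7 members at each time up to T60. At T90 H19 (41.1%, against 37.2% for Cdkn1c) and at T120 Nctc1 (30.7%) varied more. It was 24.7, 22.1, 8.38 and 55.4 CPM at T0, 21.6, 66.5, 11 and 12.1 CPM at T15, and 20.1, 66.2 and 53.4 CPM at T30. At T60 it was 17.1, 62.9, 34.3 and 18.4 CPM, at T90 it was 23.0, 49.7 and 35.5 CPM, and at T120 it was 31.3, 43.0, 32.5 and 20.4 CPM. All later groups overlapped T0, and 1 or more libraries stood high at each time up to T60. The background equals 78.4% of the Cdkn1c level in T0C (30 counts), 63.4% in T15D (68 counts) and 63.2% in T30A (91 counts). Its share was 6.29% in T0D, 1.99% in T15B and 2.61% to 6.28% at T120. The values of T0C, T15D and T30A thus lie near the background. Other low early values did not, with a share of 17.7% in T15C (103 counts), 23.4% in T0A, 10.6% in T0B and 8.71% in T15A. The T120 change was 0.15 ± 0.56 (31.8 ± 9.26 CPM at T120 and 27.6 ± 19.8 CPM at T0; edgeR adjusted p = 0.810). With an SE of 0.56 to 0.60 in the comparisons with T0, a change of the size seen for H19 was not detectable for Cdkn1c in these libraries.

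Meg3 and Rian are maternally expressed noncoding RNAs of the Dlk1-Dio3 domain, and Rian carries C/D box snoRNAs in its span. Meg3 is at chr12:109541001-109571726 and Rian at chr12:109603940-109661716, both on the plus strand and 32.2 kb apart. Per kb of exon, averaged over the 22 libraries, the members' levels were 186 CPM for Peg3, 82.1 for Meg3, 42.2 for Rian, 30.8 for H19, 27.7 for Igf2, 16.3 for Cdkn1c and 13.9 for Nctc1. Peg3 ranked 166 and Meg3 365 among 8049 genes on this per-kb scale.

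The Meg3 level was 1731, 1667, 1288 and 956 CPM in the T0 libraries A to D, 1809, 1073, 1473 and 1749.5 CPM at T15, and 1232, 1457 and 1339 CPM at T30. At T60 it was 2064, 2026, 1595 and 1611 CPM, at T90 it was 1683, 1773 and 1381 CPM, and at T120 it was 1514, 1248, 998 and 1001 CPM. All later groups overlapped T0. Meg3 was not called against T0 at any time, with a T120 change of -0.24 ± 0.19 (edgeR adjusted p = 0.244), and its joint test had an adjusted p of 0.0743 (0.0383 with the letter block). The T60 against T30 step was 0.44 ± 0.21 (adjusted p = 0.0798; 0.48 and adjusted p = 0.0438 with the letter block), and it was -0.28 after background subtraction.

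The Rian level was 1026, 931, 587 and 429 CPM in the T0 libraries A to D, 862, 463, 677 and 949 CPM at T15, and 471, 587 and 585 CPM at T30. At T60 it was 1037, 1144, 730.1 and 1177 CPM, at T90 it was 927, 1008 and 841 CPM, and at T120 it was 671, 605, 536 and 671 CPM. The T0 libraries spanned a wide range, and the T60 libraries all lay above those of T30. Rian was called at T60 against T30, with 1022 ± 203 CPM at T60 (SD, n = 4) and 548 ± 66.3 CPM at T30 (SD, n = 3) and a change of 0.90 ± 0.26 (edgeR adjusted p = 0.00629). This call was lost after background subtraction (0.35, adjusted p = 0.406) and when the 5 high-background libraries were left out, so that T30 kept 1 library, assumed to vary like the rest (0.79, adjusted p = 0.136). The background equals 4.87% to 24.2% of the Rian level at T30 and 0.186% to 0.402% at T60. Its joint call (adjusted p = 0.0186) was lost after background subtraction as well (0.425). Against T0, with all libraries, Rian was not called at any time, with -0.26 ± 0.23 at T120 (edgeR adjusted p = 0.315). At T60 it was 0.46 ± 0.23 (adjusted p = 0.0989). That change was called without T0A (0.65, adjusted p = 0.0270) or without T60C (0.60, adjusted p = 0.0379), and was 0.13 after background subtraction.

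Meg3 and Rian varied together from library to library. Over the 22 libraries the Pearson r of their log2 CPM was 0.85 and Spearman's rho 0.87, and r was 0.83 on deviations from the time-point means and 0.81 without T0D and T120C. These libraries share depth and background, so r is a description here. The log2 ratio of Meg3 to Rian averaged 0.92 ± 0.26 at T120 and 0.97 ± 0.20 at T0 (SD, n = 4 each), a difference of -0.05 (exact two-sided permutation p = 0.83). At the times between, its mean was 1.07 at T15, 1.30 at T30, 0.85 at T60 and 0.80 at T90. The T30 libraries, at 1.39, 1.31 and 1.19, did not overlap those of T0 (0.75, 0.84, 1.13 and 1.16), a difference of 0.33 that was not tested. Mirg, a further noncoding RNA of the same domain, had an r of 0.59 with Rian (rho 0.49) and of 0.35 with Meg3 (rho 0.29) over the 22 libraries. On deviations from the time-point means r was 0.90 with Rian and 0.78 with Meg3. Mirg rose at T120, with 145 ± 21.6 CPM at T120 and 90.3 ± 40.3 CPM at T0 and a change of 0.68 ± 0.29 (edgeR adjusted p = 0.0380), and 0.64 after background subtraction, not called (adjusted p = 0.127). It was not called either when the 5 high-background libraries were left out (adjusted p = 0.0524). At T90 Mirg had 206 ± 66.7 CPM, a rise of 1.19 ± 0.31 over T0 (adjusted p = 0.00183).

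The promoters of Meg3 and Rian (RefSeq, GRCm38.p6, plus strand) are shown because these RNAs moved together between libraries. The first is chr12:109540746-109541045 and the second chr12:109603695-109603994, with the motif matches in capitals.
Meg3 promoter: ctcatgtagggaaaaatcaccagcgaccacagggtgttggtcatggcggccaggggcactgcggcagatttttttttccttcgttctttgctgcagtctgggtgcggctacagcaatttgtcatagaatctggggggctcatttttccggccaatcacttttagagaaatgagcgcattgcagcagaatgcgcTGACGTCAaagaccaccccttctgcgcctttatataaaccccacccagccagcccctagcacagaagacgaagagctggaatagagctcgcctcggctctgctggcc
Rian promoter: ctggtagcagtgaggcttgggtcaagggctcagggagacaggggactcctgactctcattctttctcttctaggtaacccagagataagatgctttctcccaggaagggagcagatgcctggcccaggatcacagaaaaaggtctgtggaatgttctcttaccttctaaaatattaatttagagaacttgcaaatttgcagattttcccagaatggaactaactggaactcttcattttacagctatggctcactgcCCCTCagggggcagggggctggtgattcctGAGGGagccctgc
The Meg3 window holds 1 match to the CRE letters and 0 of the other motifs, and the Rian window holds 2 matches to CCCTC and 0 of the others. A second annotated Meg3 start was not printed.

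Peg3, a paternally expressed zinc finger protein that marks many adult stem cells, had the highest mean level per kb of exon of the 7 at each time, from 126 CPM per kb at T120 to 235 at T60. Its gene is at chr7:6703892-6730431 on the minus strand, with 13324 exon bases. The level was 2427, 3137, 1912 and 1842 CPM in the T0 libraries A to D, 3523, 2109, 2349.7 and 2401 CPM at T15, and 2407, 2146 and 3096 CPM at T30. At T60 it was 3619.6, 3034, 3056 and 2836 CPM, at T90 it was 2708, 2555 and 2524 CPM, and at T120 it was 2254, 1476, 1529 and 1457 CPM. The T60 libraries were high and 3 of the 4 T120 libraries were the lowest of all, while T120A overlapped T0.

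Peg3 averaged 1679 ± 384 CPM at T120 and 2329.6 ± 598 CPM at T0 (SD, n = 4 each), a fall of 1.39-fold with a log2 change of -0.47 ± 0.19 (edgeR adjusted p = 0.0283). The call was lost without T0A, T0B, T120B, T120C or T120D (highest adjusted p of 0.184, at -0.28 without T0B) and with DESeq2 size factors (0.0515). After background subtraction it was -0.74 (adjusted p = 0.00290). The step at T120 against T90, which does not use T0, was -0.63 ± 0.20 with no overlap (adjusted p = 0.0301). It was lost after background subtraction (-0.55, adjusted p = 0.104) and without T90A, T90B, T90C, T120B, T120C or T120D, at an adjusted p of at most 0.104. At T60 Peg3 was at 0.43 ± 0.19 against T0 (adjusted p = 0.0588). In the authors' deposited table this comparison had a log2 fold change of 0.46 (adjusted p = 0.00795). Meg3 (0.42, adjusted p = 0.0260) and Rian (0.50, adjusted p = 0.0394) were also under 0.05 there at T60. The deposited values of Peg3 at T120 were -0.44 against T0 (adjusted p = 0.00826) and -0.60 against T90 (adjusted p = 0.00592). After background subtraction the T60 changes computed here were 0.06 for Peg3, 0.00 for Meg3 and 0.13 for Rian. None was called (edgeR adjusted p of 0.843, 0.993 and 0.769).

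The Peg3 promoter (RefSeq, GRCm38.p6, minus strand, chr7:6730370-6730669) is shown as that of the most abundant member, with motif matches in capitals.
Peg3 promoter: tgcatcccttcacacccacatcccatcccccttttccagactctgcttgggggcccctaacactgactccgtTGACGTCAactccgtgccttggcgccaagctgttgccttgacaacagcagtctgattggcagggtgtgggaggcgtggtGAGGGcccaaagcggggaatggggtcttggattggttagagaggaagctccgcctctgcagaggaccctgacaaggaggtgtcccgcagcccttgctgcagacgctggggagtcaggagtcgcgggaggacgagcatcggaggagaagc
It holds 1 match to the CRE letters, 1 to CCCTC and 0 of the others.

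Genes with a profile most like each member were taken by Pearson r of log2 CPM over the 22 libraries. For Nctc1 these were Taz (r = 0.99), Cc2d1a, Vps39, Invs and Hoxa7 (0.98 each), and their r on deviations from the time-point means was 0.56 to 0.84. For H19 they were Hddc3 (0.88), Gas1, Golga3, Atp6v0a1 and Pard3. For Igf2 they were Colec12 (0.82), Bmp6, Zfp644, Lmbrd1 and Crebrf, and for Cdkn1c Plxna1 (0.85), Lmnb1, C1qtnf3, Dvl3 and Sh3glb1. For Meg3 they were Rian (0.85), Kcnn3, Map2, Pcdh7 and Pde1c, and for Rian Meg3 (0.85), Gm26945, Gm37899, B830012L14Rik and Tppp3. For Peg3 they were Ank3 (0.94), Adamts5, Rcan2, Zim1 (0.90) and Edn3. Meg3, Gm26945, Gm37899 and B830012L14Rik lie on the same strand of chromosome 12 as Rian. Gm26945 lies inside the span of Rian without sharing an exon with it, and Gm37899 and B830012L14Rik begin 7.2 kb and 33.9 kb past its end. Zim1 lies 7.4 kb from Peg3 on the same strand. Of the other genes only Hddc3 is on the chromosome of the member it resembled, far from H19. The r of H19 with Nctc1 was 0.73, and 0.27 on deviations from the time-point means. That of H19 with Igf2 was 0.13.

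Other genes known as imprinted in the mouse were read from a list of 76, of which 42 were in the table. The list also holds Xist, and whether its genes are imprinted in these cells was not tested. Against T0, 0 of the 42 were called at T15 and 0 at T30 (1 and 6 at an unadjusted p under 0.05 in edgeR, 0 and 1 called by DESeq2). At T60 12 were up and 10 down, at T90 12 up and 12 down, and at T120 15 up and 17 down. The 32 called at T120 are 76.2% of the list, near the 76.8% of all listed genes, and the list's median of -0.13 was near the -0.08 over all listed genes. After background subtraction 9 were up and 14 down, where the calls over all 8059 listed genes also fell, from 6187 to 5083. The calls thus lay on both sides, and within the Kcnq1 and Peg10-Sgce domains some rose and others fell.

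In the Kcnq1 domain the paternally expressed noncoding RNA Kcnq1ot1 had 1739 ± 147 CPM at T120 and 683 ± 45.9 CPM at T0 (SD, n = 4 each), a rise of 1.35 ± 0.12 (edgeR adjusted p = 3.43e-09). It is antisense to Kcnq1, and without stated strand-aware counting reads of the pair cannot be told apart. Osbpl5, of the same domain, fell by 1.29 on the log2 scale, with 26.5 ± 3.60 CPM at T120 and 64.5 ± 4.55 CPM at T0. Of the 6 listed genes of this domain 2 were up and 1 down at T120. In the Peg3 domain, grouped after the values were seen, the 3 listed genes Peg3, Zim1 and Usp29 were called down, beside 39.5% of all listed genes, and the calls of Peg3 and Usp29 were each lost under some alternatives. Zim1, a zinc finger gene expressed from the maternal allele, had 196 ± 27.7 CPM at T120 and 361 ± 90.6 CPM at T0 (-0.88 ± 0.20). Usp29, a paternally expressed deubiquitinase gene, had 8.21 ± 4.33 CPM at T120 and 39.3 ± 10.3 CPM at T0 (-2.27 ± 0.36), and after background subtraction -3.02, not called (adjusted p = 0.123).

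The Peg10-Sgce domain held genes that moved in opposite directions, with 2 up and 4 down of 7 at T120. Peg10, a paternally expressed gene derived from a retrotransposon, had 97.3 ± 6.80 CPM at T120 and 17.5 ± 7.58 CPM at T0 (SD, n = 4 each), a rise of 2.50 ± 0.29 (edgeR adjusted p = 1.20e-07). Asb4 had 21.7 ± 8.41 CPM at T120 and 4.41 ± 1.75 CPM at T0 (2.36 ± 0.50). After background subtraction the rises were 4.77 for Peg10 and 10.69 for Asb4, so their sizes depend on the background taken off. Sgce, which is transcribed from the same promoter region as Peg10 in the other direction and encodes ε-sarcoglycan, had 20.3 ± 2.05 CPM at T120 and 41.9 ± 5.69 CPM at T0 (-1.05 ± 0.14). Casd1 had 12.1 ± 1.2 CPM at T120 and 30.5 ± 2.33 CPM at T0 (-1.34 ± 0.14). The falls of Sgce and of Ppp1r9a (-1.11 ± 0.21) were not called after background subtraction (-0.71 and -0.59, adjusted p of 0.374 and 0.534). Peg10 was already at 43.1 ± 9.82 CPM at T60 and 72.3 ± 7.91 CPM at T90. The remaining large changes were in Dcn (1.63, and 4.24 after background subtraction), Atp10a (1.63), Nap1l5 (-1.48) and Copg2 (-1.37). Dcn, the gene of the matrix proteoglycan decorin, is also one of the fibro-adipogenic markers.

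**Figure D4:**
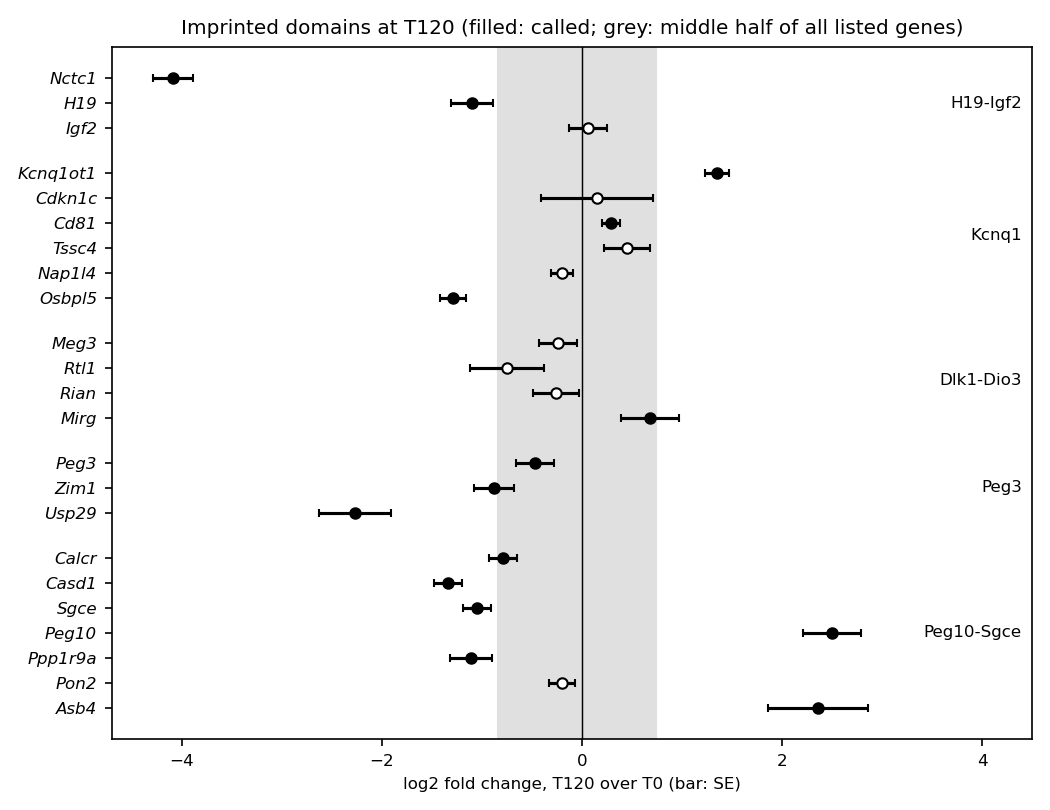
log2 fold change at T120 over T0 (x axis, bar: SE) of the listed genes of 5 imprinted domains (y axis), filled where called; the grey band is the interquartile range of all listed genes (-0.84 to 0.74). Nctc1 and H19 lie left of Igf2 in the H19-Igf2 domain, and Peg10 and Asb4 lie right of the other genes of their domain.

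Partners of the members were read from lists as well, beside the 76.8% of all listed genes called at T120. Among 7 listed kin and targets of Cdkn1c, 2 were up and 2 down at T120 (57.1% called). Cdkn1a, the CDK inhibitor p21, had 160.4 ± 41.1 CPM at T120 and 5.60 ± 0.933 CPM at T0 (SD, n = 4 each), a rise of 4.84 ± 0.31 (edgeR adjusted p = 2.55e-11), while Cdkn1c was not called. The D-type cyclin genes Ccnd3 (40 ± 7.42 CPM at T120 and 159.9 ± 21.3 CPM at T0) and Ccnd1 (49.0 ± 18.5 CPM at T120 and 108 ± 41.6 CPM at T0) fell by 2.01 and 1.14 on the log2 scale. Among 7 listed receptors and binding proteins of Igf2, 2 were up and 3 down (71.4%). Igf2bp2, which encodes an RNA-binding protein, rose by 2.14 ± 0.54, with 62.5 ± 13.2 CPM at T120 and 14.4 ± 6.51 CPM at T0. After background subtraction the rise was 8.09 for Igf2bp2 and 7.68 for Cdkn1a, so their sizes depend on the background taken off. Igf1, the related growth factor gene, had 25.2 ± 6.61 CPM at T120 and 67.8 ± 27.5 CPM at T0 (-1.44 ± 0.29). Among the receptor genes, Igf1r was at 0.51 ± 0.13 (called) and Igf2r was at -0.04 ± 0.13 (not called). Insr, the third receptor gene listed, fell, with 69.4 ± 6.51 CPM at T120 and 144 ± 16.2 CPM at T0 (-1.05 ± 0.13; edgeR adjusted p = 1.81e-07).

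Among 12 listed regulators of imprinted loci, 6 were up and 5 down at T120 (91.7% called, beside 76.8% of all listed genes). Genes of TET enzymes, which oxidise 5-methylcytosine, were called in opposite directions. Tet1 had 13.3 ± 5.61 CPM at T120 and 74.0 ± 8.08 CPM at T0 (-2.50 ± 0.21; edgeR adjusted p = 1.24e-09), and Tet2 had 958 ± 80.4 CPM at T120 and 314 ± 20.4 CPM at T0 (1.61 ± 0.12; edgeR adjusted p = 1.48e-10). Ctcf, whose protein binds the H19 control region, was at -0.55 ± 0.09 (adjusted p = 1.12e-05). Of the 8 listed neighbours of the H19 and Meg3 domains 2 were up and 1 down (37.5%), and Yy1, a zinc finger gene beside the Dlk1-Dio3 domain, rose by 1.99 ± 0.13, with 181 ± 11.9 CPM at T120 and 45.5 ± 4.99 CPM at T0. The 1 listed Peg3 partner, Traf2, was at -0.25 ± 0.12 (adjusted p = 0.0585).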

How the data were processed

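Deposited whole-number counts per gene for 22 libraries were used, per the file headers. Tools listed for them, per the submitters' processing notes, were cutadapt 1.11 and featureCounts 1.4.5-p3, with DESeq2 1.18.1 and the mm10 build. The labels' protocols give a kit for formalin-fixed RNA, stranded SMARTer total RNA libraries and 65-base single reads. Which aligner, annotation and strand setting served was not given in the sources used here. Log2 fold changes and adjusted p-values deposited by the authors were read only for the members. The labels list 15 samples, of which 9 were not analysed here.

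Names, positions and exon lengths came from GENCODE vM21 (GRCm38; 8049 of 8059 identifiers matched). The test across all genes was that of edgeR 4.0.16 (R 4.3.3) by quasi-likelihood (TMM, time point as factor, no filter, all 22 libraries). TMM takes most genes as unchanged, and a shift shared by most genes could not be seen. The test was checked on simulated data in which few genes changed, at T120 only and equally in both directions. That setting cannot check the scaling or error rates where most genes move, and 76.8% of all listed genes were called at T120. Ratios used counts plus 0.5. Members and lists were chosen with earlier results of these data known. Named genes were the members, the 5 most alike per member and the 8 most changed other imprinted genes. At most 8 partners or neighbours changed at least 2-fold were named as well. A few more were named after their values were seen (Ctcf, Igf1r, Igf2r, Insr, Mirg, Sgce, Casd1, Ppp1r9a, Osbpl5, Zim1 and Traf2). Domains were grouped after the values were seen. Alternatives were DESeq2 1.42.0 and its size factors, filterByExpr, a block by library letter, background subtraction, leaving out the 5 libraries of highest background and each library in turn. The deviations of same-lettered libraries had an r of 0.12 to 0.30 at T60 against T30, 0.18 to 0.23 at T90 against T60 and 0.17 to 0.31 at T120 against T90. An r over 0.1 in every pair was taken as pairing. Libraries of unlike letters were not compared, so pairing is not shown by these values. At T60 and T120 against T0 the r was negative (-0.19 to -0.12 and -0.31 to -0.10). In the other comparisons not every pair passed 0.1. Library letters are the table's and the labels give no pairing.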

Additional observations from a re-analysis of the deposited data

Results flagged for a closer look

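In the T120 group the level of Peg3 in library T120A was 2254 CPM, far from the 1476, 1529 and 1457 CPM of the other 3 libraries. Its gap to the nearest library was 0.91 of the group's range. Of 28 sets of 4 libraries looked at this was the 1 flagged, and chance flags about 1 in 20. Without T120A, Peg3 was called at T60 against T0 (edgeR adjusted p = 0.0367). This call also appeared without T0B (0.0109) or without T15A (0.0281), so it was not particular to T120A. With all libraries and after background subtraction this T60 change was 0.06 and not called.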

How the results depend on the processing

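The falls of Nctc1 at T60, T90 and T120 and of H19 at T120 were called under each alternative run. Filtering with filterByExpr removed 0 genes. Background subtraction moved the median of all genes by 0.17 for T60 against T30 and by at most 0.10 in the other comparisons. The number of members called at T60 against T0 was 1, and 2 with DESeq2 or the replicate block (range over left-out libraries 1 to 2). At T90 against T0 it was 2, and 1 without the 5 libraries of highest background (1 to 2). At T60 against T30 it was 2, with 4 under the replicate block and 1 after background subtraction (2 to 2). Without the 5 libraries T30 kept 1 library, so no count is given for that run. At T90 against T60 it was 1, and 2 under the replicate block (1 to 2). At T120 against T90 it was 2, and 1 after background subtraction (1 to 2). Over all 8059 listed genes, 4533 were called at T60 against T0, 4588 with DESeq2 and 4558 under the block. At T90 against T0 these were 5546, and 5084 without the 5 libraries. At T60 against T30 they were 4111, with 4053 under the block and 2289 after background subtraction. At T90 against T60 they were 2441, and 2507 under the block. At T120 against T90 they were 1851, and 827 after background subtraction. With the letters as a replicate block the H19 to Igf2 difference was -1.18 and the H19 to Nctc1 difference 3.0, both at an exact sign-flip p of 0.125, the smallest that 4 pairs allow. The Meg3 to Rian difference of -0.05 ranged from -0.13 to 0.07 over left-out libraries. Signs turned in log2 fold changes against T0 that were not called. After background subtraction these were H19 at T15 (-0.10), Igf2 at T30 (0.04), T60 (-0.02) and T120 (-0.13), Meg3 at T30 (0.28) and T90 (-0.16), and Peg3 at T90 (-0.19). With DESeq2 it was Cdkn1c at T15 (0.01). Without the 5 libraries these were Rian at T15 (0.00), Meg3 at T30 (0.07), and Cdkn1c at T60 (-0.23), T90 (-0.10) and T120 (-0.26). Over left-out libraries the ranges that crossed 0 were, at T15, H19 -0.10 to 0.11, Igf2 -0.02 to 0.28, Meg3 -0.04 to 0.25, Rian -0.21 to 0.18, Cdkn1c -0.93 to 0.58 and Peg3 -0.03 to 0.33. At T30 they were Meg3 -0.21 to 0.05 and Peg3 -0.02 to 0.32, at T60 H19 -0.15 to 0.07 and Cdkn1c -0.30 to 0.82, and at T120 Igf2 -0.10 to 0.18 and Cdkn1c -0.13 to 0.76. The cause of these changes was not tested. The replicate block called Peg3 at T60 against T0 (adjusted p = 0.0416), where r between same-lettered libraries was negative (-0.19 to -0.12). After background subtraction this change was 0.06 and not called (adjusted p = 0.843). Depth limits Nctc1 at T120 (57 to 79 counts), Cdkn1c in T0C (30 counts) and T15D (68 counts), and the libraries of high background.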
